A study of Mus musculus with 12 samples.

Results

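Fatty acid oxidation breaks long acyl chains into acetyl-CoA in mitochondria and in peroxisomes, with separate enzymes in each. The gene set described here is 36 named genes of this pathway: the carnitine shuttle, the enzymes of each turn of the spiral, electron transfer, the acyl-CoA synthetases and the thioesterases. The rows of the count table carrying these 36 symbols were taken, of 54532 genes in all, and all 36 had enough counts to be among the 14506 genes tested. By textbook location, 19 encode mitochondrial proteins, 9 peroxisomal proteins and 8 proteins found in several or other places, such as the synthetases.

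The cells were resident peritoneal macrophages from C57BL/6 mice, and RNA was sequenced in 12 libraries. The culture medium was DMEM with MOPS or HEPES as the buffer, for 24 h, after which cells were left untreated or given LPS, a bacterial cell-wall lipid that Toll-like receptor 4 senses, at 10 ng/ml for 2 h. This gave 4 groups of 3 libraries, named here by the buffer alone where untreated and as MOPS with LPS or HEPES with LPS where treated. The design text names pH 6.8 and 7.4 and then the buffers in that order, so the MOPS medium is taken as the acidic one from word order alone, and buffer and pH cannot be told apart. Nothing in the labels ties the replicates to separate animals or cultures, and p-values measure only the spread between these libraries, which may be technical.

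In mitochondrial oxidation a long-chain acid is first joined to coenzyme A, passed through the inner membrane on carnitine, and shortened by dehydrogenation, hydration, another dehydrogenation and thiolysis, with electrons passed to the respiratory chain. Peroxisomes take very long and branched chains through an importer, shorten them with an oxidase that makes hydrogen peroxide, and hand the shorter products on as carnitine esters. In macrophages, fatty acid oxidation is known for its link to alternative activation, and LPS for turning cells toward glycolysis.

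Library totals were 20114613 to 24734853 counts in MOPS, 22433773 to 24669239 in HEPES, 21210474 to 24521749 in MOPS with LPS and 22447187 to 23506654 in HEPES with LPS. All 9 macrophage markers searched for were detected, and their summed level was 16683 to 16935 CPM (counts scaled to a common total and corrected for composition) in MOPS and 25972 to 27361 in HEPES. In LPS-treated cells it was 17308 to 19637 in MOPS and 27178 to 28942 in HEPES. Most of that sum was Lyz2, whose untreated means were 12599 CPM (MOPS) and 21982 CPM (HEPES). Of the 9 markers 2 were higher and 5 lower in MOPS than in HEPES before LPS (median log2 change -0.18), and 3 were higher and 3 lower with it. Markers here and below are counted as higher or lower at a Benjamini-Hochberg adjusted p under 0.05 (edgeR's quasi-likelihood test). At that threshold 49.7% of all genes tested were called in either direction between the media without LPS, and 53.8% with it. B cell markers, of which 9 of 10 were tested, summed to 209 to 217 CPM in MOPS, 104 to 174 in HEPES, 121 to 136 in MOPS with LPS and 34.7 to 39.2 in HEPES with LPS. Of those 9, 5 were higher and 1 lower in MOPS than in HEPES without LPS, and 8 were higher and 1 lower with LPS. T and NK cell markers summed to at most 1.22 CPM, with Ncr1 and Gzma at 0 in all libraries, and granulocyte and mast cell markers to at most 40.9 CPM, with Ly6g at 0. Dendritic cell markers summed to 44.6 to 48.7 CPM in MOPS, 37.3 to 40.7 in HEPES and, with LPS, 51.3 to 56.2 and 46.7 to 53.3. Of the 6 tested, 4 were higher and 1 lower in MOPS than in HEPES without LPS (median log2 change 1.70), and 4 were higher and 2 lower when it was present. Mesothelial, stromal and endothelial markers summed to at most 9.92 CPM. The part of these other cells in the results below was not tested, and in bulk RNA fewer cells of a type and less RNA per cell cannot be told apart.

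Without LPS, most of the set was higher in MOPS than in HEPES. Of the 36 genes, 22 were higher and 7 lower at a Benjamini-Hochberg adjusted p under 0.05 (edgeR's quasi-likelihood test), where 24.3% of all genes tested were higher, 25.4% lower and 49.7% called in either direction. The median log2 fold change over the 36 was 0.43, beside -0.014 over all genes tested. The libraries of the MOPS and HEPES groups did not overlap for 30 of the 36, against 57.6% of all genes tested. A change of at least 2-fold was called in 7 of them, 6 higher and 1 lower, against 8.11% of all genes tested. Fold changes below are log2 ± standard error, an approximation obtained by dividing the size of the change by the square root of the F statistic.

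**Figure D1:**
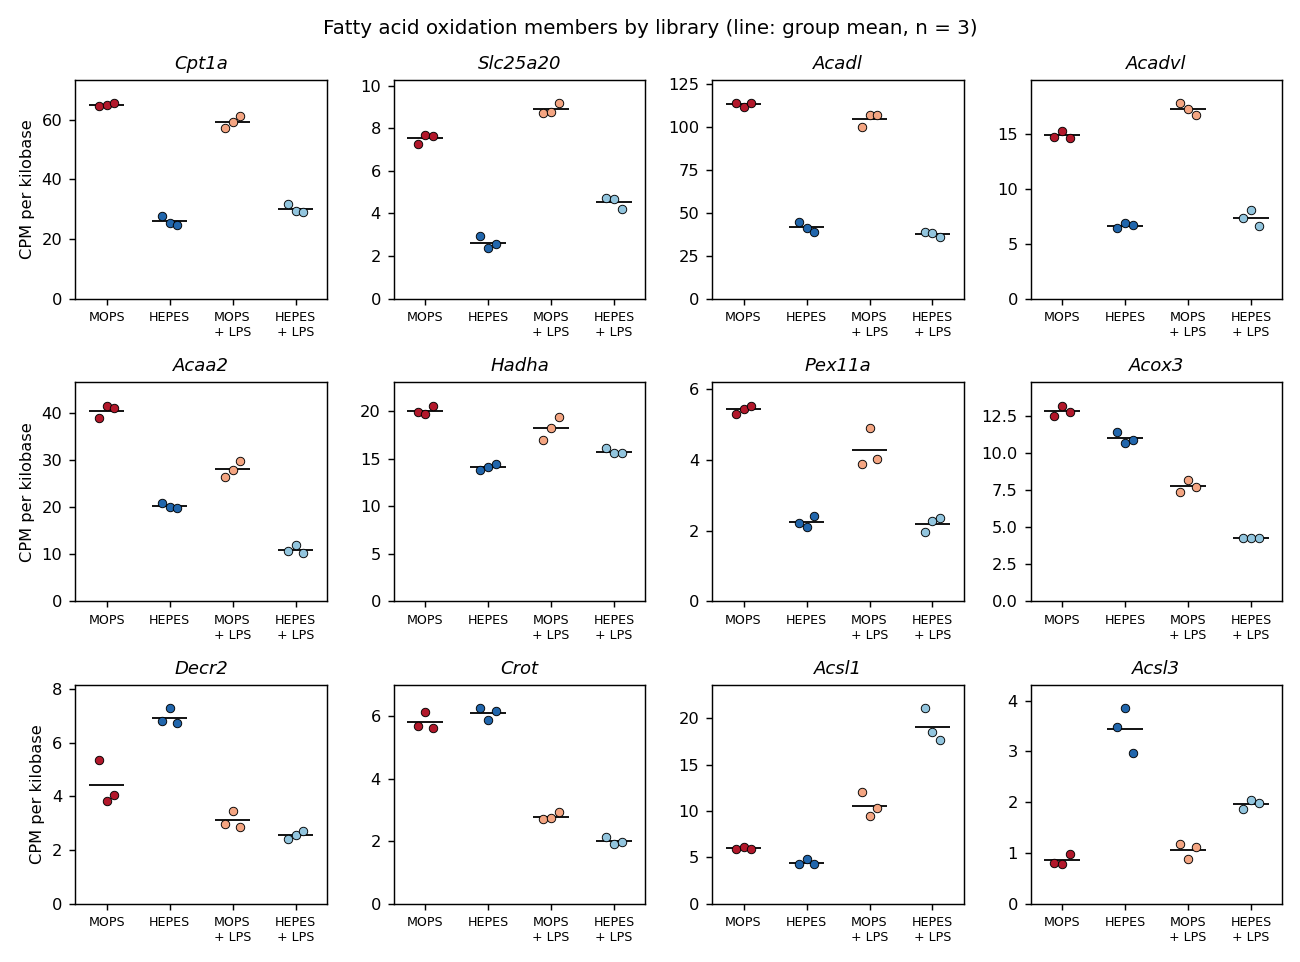
Level of 12 genes of the set in each library, as CPM per kilobase of gene length (vertical axis, from 0), by group (horizontal axis); points are libraries and lines are means of 3. Cpt1a, Slc25a20, Acadl, Acadvl and Pex11a are higher in both MOPS groups than in both HEPES groups, Acox3, Decr2 and Crot are lower with LPS than without it, and Acsl3 is highest in HEPES without LPS.

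All 3 genes of the carnitine shuttle were higher in MOPS without LPS. Cpt1a (mm10: ENSMUSG00000024900, chromosome 19 from 3323301 to 3385732) encodes the outer-membrane carnitine palmitoyltransferase, the step at which malonyl-CoA limits entry. Its level was 277, 279 and 281 CPM in the MOPS libraries and 119, 109 and 107 CPM in the HEPES libraries, so every MOPS library stood above every HEPES library. The change was 1.32 ± 0.044 (adjusted p = 1.74e-21, edgeR), a 2.5-fold difference. Slc25a20 (ENSMUSG00000032602, chromosome 9 from 108662088 to 108684641), which encodes the carrier that exchanges acylcarnitine for carnitine across the inner membrane, was at 35.3, 37.2 and 37 CPM in MOPS and 14.3, 11.6 and 12.4 CPM in HEPES (1.51 ± 0.069). This was the largest rise in the set. Cpt2, which returns the acyl group to coenzyme A in the matrix, was higher by less, at 20.8 ± 1.23 CPM (SD, n = 3) against 15.4 ± 0.776 CPM (0.44 ± 0.078). Per kilobase, the level of Cpt1a was 7.47 ± 0.413 times that of Cpt2 in MOPS and 4.04 ± 0.297 times in HEPES.

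The acyl-CoA dehydrogenases, which open each turn of the spiral, split by gene. Acadl (ENSMUSG00000026003, chromosome 1 from 66830839 to 66863277), for long chains, was at 228, 224 and 229 CPM in MOPS and 90.3, 82.2 and 77.9 CPM in HEPES, with no overlap (1.44 ± 0.046, adjusted p = 7.81e-22, edgeR). It was also the member with the highest level per length in both media, 113 ± 1.35 and 41.6 ± 3.13 CPM per kilobase. Acadvl (ENSMUSG00000018574, chromosome 11 from 70010183 to 70015411), for very long chains, was at 39.5, 41.2 and 39.2 CPM in MOPS and 17.3, 18.5 and 18 CPM in HEPES (1.16 ± 0.062). On 42.9% of its exon bases Acadvl overlaps Dvl2 on the opposite strand, and without a stated strand setting reads there cannot be assigned with certainty. Dvl2 itself was at 0.087 in this comparison (adjusted p = 0.304, edgeR), not called. Acads, for short chains, rose by 0.74 ± 0.071.

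The remaining dehydrogenases did not follow. Acadm, for medium chains, was at 49.3, 44.6 and 44.8 CPM in MOPS and 52.8, 52.7 and 48.4 CPM in HEPES, so the groups overlapped. Its call as lower (-0.15 ± 0.054, adjusted p = 0.0204, edgeR) was lost with DESeq2, with RLE size factors and without any of 4 libraries, MOPS replicate 2 or 3 or HEPES replicate 4 or 5 (adjusted p 0.00741 to 0.121 over the alternatives). Acad9, a dehydrogenase better known for the assembly of respiratory complex I, was at 14, 13.4 and 11.9 CPM against 16.4, 14.7 and 16.6 CPM (-0.28 ± 0.093). Its groups did not overlap, but the call was lost with DESeq2, without MOPS replicate 3 and without HEPES replicate 6 (adjusted p 0.00575 to 0.0879). Acad11, a long-chain dehydrogenase, was not called (0.19 ± 0.11, adjusted p = 0.162, edgeR). Per kilobase, Acadl stood at 9.61 ± 0.502 times Acadm in MOPS and 3.18 ± 0.15 times in HEPES.

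Of the 5 genes for the later steps of the spiral, 3 were higher in MOPS, 1 was lower and 1 was not called. Hadha and Hadhb encode the alpha and beta subunits of the mitochondrial trifunctional protein, which carries out hydration, dehydrogenation and thiolysis of long chains. In MOPS Hadha was at 175 ± 4.21 CPM (SD, n = 3), where HEPES gave 123 ± 3.12 CPM (0.51 ± 0.043), and Hadhb at 72.9 ± 0.559 and 45.7 ± 1.9 CPM (0.67 ± 0.046). The genes lie head to head on chromosome 5 with annotated starts 86 bases apart, so both are read outward from the same short stretch. The pair moved the same way in this comparison, between the media with LPS, and with LPS in MOPS. With LPS in HEPES, Hadha was higher (0.16 ± 0.044) and Hadhb was not called (-0.061 ± 0.049). The difference between the LPS changes in MOPS and HEPES was called for Hadha (-0.30) and not for Hadhb (-0.084). Whether the shared stretch has a part in any of these changes was not tested. The stretch is shown for its place between the starts. It is 85 bases long with 69.4% GC and 9 CpG dinucleotides, in capitals, at chr5:30155163-30155247 on the plus strand of GRCm38.p6 (sequence from RefSeq).
Hadha to Hadhb: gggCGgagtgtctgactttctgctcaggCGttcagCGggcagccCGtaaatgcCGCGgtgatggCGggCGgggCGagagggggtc
Of the 50-base windows of Hadhb, 19.7% also occur in other annotated genes, chiefly Gm13910, so its counts are less certain than those of Hadha.

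Acaa2, the thiolase that closes the spiral, was at 58.8, 62.8 and 62.3 CPM in MOPS and 31.7, 30.4 and 29.9 CPM in HEPES, with no overlap (a 2-fold difference, adjusted p = 7.89e-16, edgeR). Echs1, the short-chain enoyl-CoA hydratase, ran slightly the other way, at 100.2, 99.9 and 104 CPM against 111, 115 and 111 CPM (-0.15 ± 0.044). Here too the groups did not overlap. Paox overlaps 1.71% of the exon bases of Echs1 on the opposite strand and was itself lower in MOPS (-0.92 ± 0.10), and the part of its reads in the Echs1 change was not tested. Hadh, the hydroxyacyl-CoA dehydrogenase for shorter chains, was not called (-0.017 ± 0.055).

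The auxiliary enzymes, which let unsaturated chains pass through the spiral, were divided. The isomerase Eci1, in mitochondria, was higher in MOPS (0.51 ± 0.079). Eci2, an isomerase of mitochondria and peroxisomes, was at 67.6, 68.4 and 69.8 CPM in MOPS and 29.1, 29.3 and 28.6 CPM in HEPES, with no overlap (1.24 ± 0.052, adjusted p = 9.17e-19, edgeR). The dienoyl-CoA reductases were lower: the mitochondrial Decr1 was at 19.9, 21.1 and 19.4 CPM against 30.1, 29.7 and 24 CPM (-0.47 ± 0.076). The peroxisomal Decr2 (ENSMUSG00000036775, chromosome 17 from 26081211 to 26090329) was at 12.2, 8.76 and 9.29 CPM against 15.6, 16.7 and 15.4 CPM (-0.66 ± 0.10). In neither did a MOPS library reach the lowest HEPES library.

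The 3 electron transfer genes were all higher in MOPS. Etfa and Etfb encode the subunits of the flavoprotein that collects electrons from the acyl-CoA dehydrogenases, and Etfdh encodes the enzyme that passes them to ubiquinone. Etfa rose by 0.55 ± 0.051, Etfb by 0.46 ± 0.12 and Etfdh by 0.70 ± 0.057. Etfb was counted at 5.25 ± 0.258 CPM per kilobase in MOPS, where Etfa stood at 46.7 ± 2.49. On the same strand Gm45233 overlaps 53% of the exon bases of Etfb, and the table gives Gm45233 1 count in all. How reads shared by both were counted is not given in the sources used here, so the level of Etfb is uncertain.

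Promoters were searched for the direct repeat bound by PPAR receptors with RXR, a pair of AGGTCA repeats with 1 free base between them, on both strands with up to 2 mismatches over its 12 fixed letters, in the 250 bases before to 50 after each RefSeq start. A match was found in 3 of the 33 promoters of the 31 members with an entry (9.09%) and in 1268 of 32851 promoters of all genes (3.86%). The matches are shown in capitals because PPAR receptors are textbook regulators of this pathway; each line runs 5′ to 3′ on the strand of the gene, in GRCm38.p6.
Slc25a20, chr9:108662134-108662163, plus strand, match from position 7 relative to the RefSeq start, inside an annotated exon: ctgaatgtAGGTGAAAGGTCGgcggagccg
Echs1, chr7:140116483-140116512, minus strand, match from position -83: gcccgctcAGGTCACGGGTCCaccccttaa
Etfa, chr9:55512274-55512333, minus strand, match from position -77, to the motif on the opposite strand: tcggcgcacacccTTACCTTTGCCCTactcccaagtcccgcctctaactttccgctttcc
Counted from the first base of the motif, the substitutions from motif to site were C5G and A13G in Slc25a20, A8G and A13C in Echs1 and T4G and C12A in Etfa, each read along the strand of the motif. Slc25a20 and Etfa were higher in MOPS and Echs1 lower, so the genes with a match did not share a direction. The motif TCAAGGTCA, bound by the estrogen-related receptors, was found exactly in 0 of the 33 promoters, and in 139 of the 32851 (0.423%). A match is a description of letters and not a site of binding, and Acaa2, Acad9, Decr1, Hsd17b4 and Crat had no entry.

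Besides Decr2, given above, 5 of the 9 peroxisomal genes were called between the media without LPS, all higher in MOPS, and 3 were not called. Pex11a (ENSMUSG00000030545, chromosome 7 from 79735957 to 79743131), which encodes a membrane protein that elongates peroxisomes before they divide, was at 16.8, 17.3 and 17.6 CPM in MOPS and 7.06, 6.67 and 7.63 CPM in HEPES, with no overlap (1.28 ± 0.096, adjusted p = 1.37e-12, edgeR). Abcd3, an importer of acyl-CoA esters, was higher by 0.25 ± 0.044. The oxidase Acox3, which acts on branched chains, was higher by 0.22 ± 0.042, the D-bifunctional enzyme Hsd17b4 by 0.18 ± 0.043 and the thiolase Acaa1a by 0.37 ± 0.041. The L-bifunctional enzyme Ehhadh (0.047 ± 0.25), the thioesterase Acot8 (-0.13 ± 0.092) and the carnitine octanoyltransferase Crot (-0.069 ± 0.06) were not called, with adjusted p of 0.896, 0.261 and 0.363 (edgeR). Acaa1a shares 12.9% of its 50-base windows with other genes, chiefly its near copy Acaa1b, and overlaps Myd88 on the opposite strand on 6.57% of its exon bases, while Acot8 overlaps Snx21 on 12.3%.

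Among genes of several or other locations, the synthetases that join fatty acids to coenzyme A did not move together. Acsl3 (ENSMUSG00000032883, chromosome 1 from 78657825 to 78707743), a synthetase of the endoplasmic reticulum and lipid droplets, was at 3.48, 3.43 and 4.28 CPM in MOPS and 15.2, 16.8 and 12.9 CPM in HEPES, with no overlap. The log2 change of -2.01 ± 0.12 (adjusted p = 9.08e-15, edgeR) was the largest fall in the set. Utp14b, which overlaps 5.6% of its exon bases on the same strand, was lower by a like amount (-2.24 ± 0.13), and the part of shared reads was not tested. Acsl5, a synthetase of mitochondria and the endoplasmic reticulum, was at 68, 66.7 and 73.1 CPM against 85.5, 88.3 and 87.8 CPM (-0.33 ± 0.045). Acsl1, which sits on the mitochondrial outer membrane and the endoplasmic reticulum, was at 62.2, 64 and 61.5 CPM in MOPS and 45.3, 50.1 and 44.5 CPM in HEPES (0.42 ± 0.094). Acsl4, which prefers arachidonate, was not called (0.043 ± 0.038). Crat, the carnitine acetyltransferase, rose by 0.46 ± 0.048.

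The thioesterases split acyl-CoA back into acid and coenzyme A. Acot2, in the mitochondrial matrix, was at 15.3, 14.7 and 14.6 CPM in MOPS and 8.81, 9.5 and 9.29 CPM in HEPES (0.69 ± 0.094). Acot1, its cytosolic near copy, had 0 to 34 counts per library and was not called (0.96 ± 0.44, adjusted p = 0.067, edgeR). Of their 50-base windows, 27.7% in Acot2 and 19.2% in Acot1 occur in other genes of the family, so their counts are uncertain.

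By compartment, 14 of the 19 mitochondrial genes stood higher and 4 lower in MOPS than in HEPES without LPS, with a median log2 change of 0.55, while 5 of the 9 peroxisomal genes were higher and 1 lower, with a median of 0.18. Of all genes tested, 24.3% were higher and 25.4% lower. Summed over the genes of a compartment, the mitochondrial level was 421 ± 0.237 CPM per kilobase (SD, n = 3) in MOPS and 235 ± 7.06 in HEPES, and the peroxisomal level was 94.7 ± 1.46 and 83.2 ± 0.755. The ratio of the mitochondrial to the peroxisomal sum was 4.45 ± 0.0691 in MOPS and 2.83 ± 0.0674 in HEPES, and the libraries did not overlap. Abundant genes weigh most in such a sum: Acadl alone gave 113 ± 1.35 CPM per kilobase of the mitochondrial sum in MOPS and 41.6 ± 3.13 in HEPES.

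**Figure D2:**
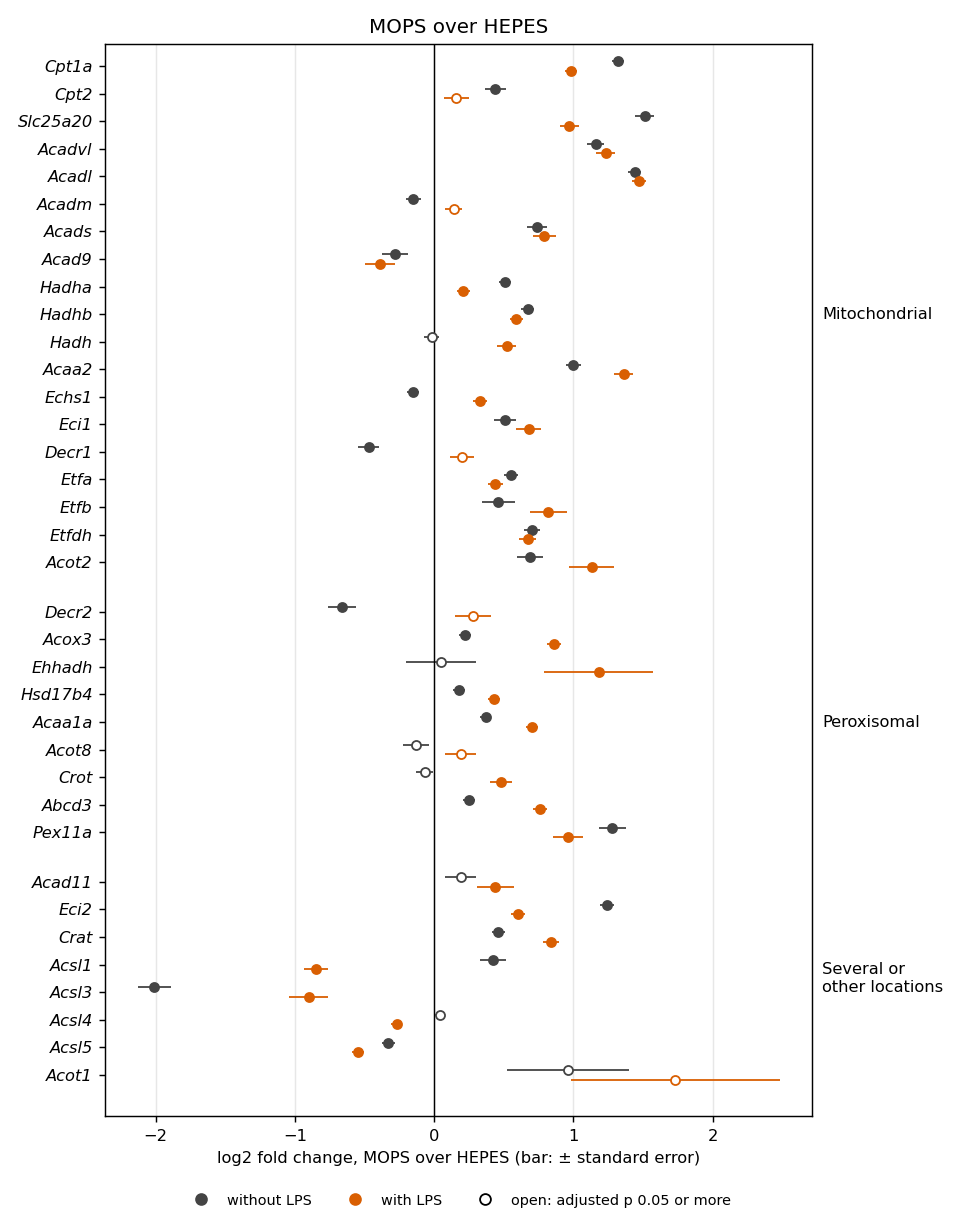
Log2 fold change of MOPS over HEPES (horizontal axis) for each of the 36 genes, grouped by compartment, without LPS (dark) and with LPS (orange); bars are ± 1 standard error and open points have an adjusted p of 0.05 or more. Without LPS 22 genes are called higher and 7 lower, and with LPS 25 and 5.

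With LPS present, 25 of the 36 genes were higher in MOPS than in HEPES and 5 lower, where 26.9% of all genes tested were higher, 26.9% lower and 53.8% called in either direction (adjusted p under 0.05, edgeR). The median over the set was 0.60, beside 0.0047 over all genes tested, and the groups did not overlap for 33 of the 36, against 58.8% of all genes. Scaling by total counts gave 4885 higher and 2942 lower over all genes, where TMM gave 3904 and 3897. At least 2-fold changes were called in 5, all higher, against 10.5% of all genes. Of the 22 genes higher without LPS, 20 were higher with it, Cpt2 was not called (0.16 ± 0.092) and Acsl1 was lower. These comparisons share no libraries, and across the 36 genes, which are not independent, their changes correlated (Pearson r = 0.705, Spearman rho = 0.737), given as a description. Neither the joint count nor the correlation was taken over all genes tested, so neither can be called particular to the set.

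Among the called members Acadl, Acaa2 and Acadvl had the largest changes, ahead of Ehhadh, Acot2, Cpt1a, Slc25a20 and Pex11a. Acadl was at 201, 215 and 215 CPM in MOPS with LPS and 78.1, 77.2 and 72.1 CPM in LPS-treated HEPES (1.47 ± 0.048, adjusted p = 1.40e-21, edgeR). Acaa2 was at 40.1, 42.2 and 45.2 CPM against 16.3, 18 and 15.4 CPM (1.36 ± 0.067). Acadvl was at 47.9, 46.5 and 45 CPM against 19.8, 21.7 and 17.7 CPM (1.23 ± 0.066), and Dvl2, which overlaps it, was at 0.33 ± 0.099. None of these 3 pairs of groups overlapped. In the carnitine shuttle Cpt1a was at 246, 254 and 263 CPM against 137, 127 and 125 CPM (0.98 ± 0.044), and Slc25a20 at 42.1, 42.5 and 44.4 CPM against 22.9, 22.6 and 20.5 CPM (0.97 ± 0.069). The thioesterase Acot2 was at 4.01, 3.97 and 3.42 CPM against 1.58, 1.97 and 1.67 CPM (1.13 ± 0.16). Acads (0.79), Hadhb (0.59), Eci1 (0.68), Etfb (0.82), Etfdh (0.67), Etfa (0.44) and Hadha (0.21) were higher on the log2 scale as well.

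Some genes had other calls with LPS than without it, and the test of that difference is the interaction given further on. Echs1, which was lower in MOPS at rest, was higher once LPS was given, at 60.3, 64.5 and 65.9 CPM against 52.2, 52.1 and 47.3 CPM (0.33 ± 0.05). Paox, which overlaps Echs1, changed direction in the same way and was higher here (0.66 ± 0.18), and the part of its reads was not tested. Hadh was now called higher (0.52 ± 0.067). Acadm (0.14 ± 0.063), Decr1 (0.20 ± 0.089) and Decr2 (0.28 ± 0.13), lower without LPS, were not called, with adjusted p of 0.0555, 0.062 and 0.0798 (edgeR). Acad9 was lower in both comparisons, at 8.33, 9.51 and 10.8 CPM against 13.5, 13.1 and 10.9 CPM with LPS (-0.39 ± 0.11).

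Of the 9 peroxisomal genes, 7 stood higher and 0 lower in MOPS than in HEPES when LPS was present, with a median of 0.70. Of all genes tested, 26.9% were higher and 26.9% lower. Ehhadh was at 1.8, 0.946 and 0.717 CPM in MOPS with LPS and 0.762, 0.479 and 0.278 CPM in HEPES with LPS. These groups overlapped, and the call (1.18 ± 0.39, adjusted p = 0.0124, edgeR) was lost without MOPS with LPS replicate 7 or without HEPES with LPS replicate 12 (log2 change 0.67 to 1.55 and adjusted p 0.00373 to 0.192 over the alternatives). Pex11a was at 12.3, 15.6 and 12.8 CPM against 6.26, 7.24 and 7.45 CPM (0.96 ± 0.11). Acox3 was at 85.1, 94.6 and 88.6 CPM against 49.6, 48.8 and 49.4 CPM (0.86 ± 0.048), and Crot at 14.8, 14.9 and 16 CPM against 11.5, 10.4 and 10.7 CPM (0.48 ± 0.081). In these 3 genes every MOPS library stood above every HEPES library. Abcd3 (0.76), Acaa1a (0.70) and Hsd17b4 (0.43) were higher on the log2 scale, and Acot8 (0.19 ± 0.11) was not called.

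All 4 synthetases were lower in MOPS than in HEPES when LPS was present. Acsl3 was at 5.14, 3.83 and 4.85 CPM against 8.16, 8.94 and 8.68 CPM (-0.90 ± 0.14), and Utp14b was at -1.20 ± 0.14. Acsl1 was at 126, 99 and 108 CPM against 222, 194 and 186 CPM (-0.85 ± 0.088), the reverse of its order without LPS. Acsl5 was at 181, 166 and 168 CPM against 262, 246 and 246 CPM (-0.55 ± 0.043), and Acsl4 at 349.8, 358 and 355 CPM against 417, 441 and 419 CPM (-0.27 ± 0.037). The groups did not overlap in any of the 4. Eci2 was at 72.4, 74 and 81.5 CPM against 53.3, 48.6 and 47.9 CPM (0.60 ± 0.052). Crat rose by 0.84 ± 0.057 and Acad11 by 0.44 ± 0.13, the latter lost without HEPES with LPS replicate 10 (adjusted p = 0.0677, edgeR). Acot1, with a fitted 1.73 ± 0.75, was not called (adjusted p = 0.0525, edgeR).

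Mitochondrial genes with LPS had 15 of 19 higher and 1 lower in MOPS, with a median of 0.67, where 26.9% of all genes tested were higher and 26.9% lower. The summed mitochondrial level was 374 ± 7.37 CPM per kilobase (SD, n = 3), against 204 ± 5.2 in LPS-treated HEPES, and the peroxisomal sum was 86.8 ± 0.694 and 57.6 ± 0.883. The ratio of the sums was 4.3 ± 0.0577 and 3.55 ± 0.111.

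**Figure D3:**
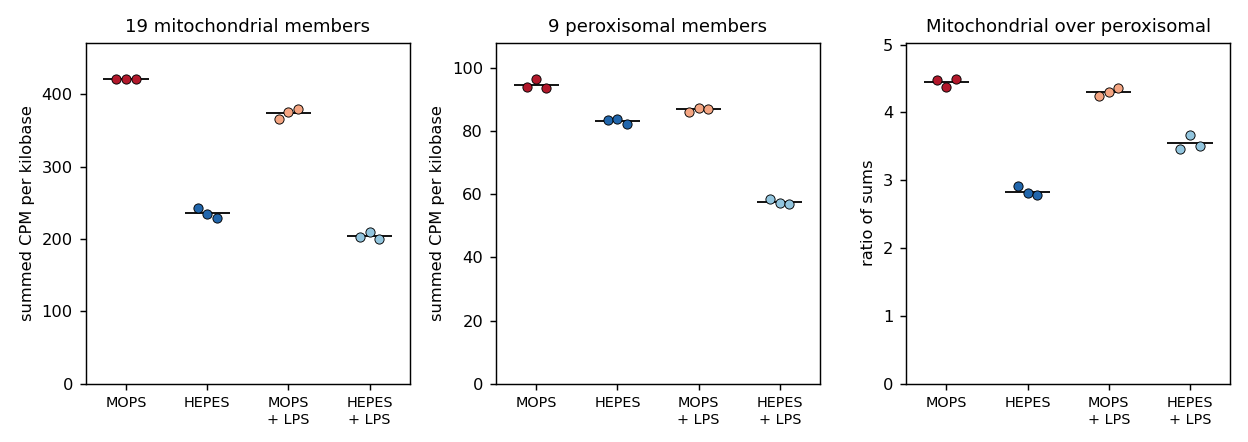
Summed level of the 19 mitochondrial genes (left) and the 9 peroxisomal genes (middle), in CPM per kilobase, and the ratio of the sums (right), in each library by group; points are libraries and lines are means of 3. The mitochondrial sum stands at 421 in MOPS and 235 in HEPES, while the peroxisomal sum is lowest in HEPES with LPS, at 57.6.

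LPS lowered most of the set in both media when counts were scaled by TMM, which sets the bulk of genes to no change. In MOPS, 9 of the 36 genes were higher with LPS and 23 lower, where 34.1% of all genes tested were higher, 34.9% lower and 69% called in either direction (adjusted p under 0.05, edgeR). In HEPES, 8 were higher and 23 lower, where the shares of all genes were 35.6%, 41.2% and 76.9%. The medians over the set were -0.19 in MOPS and -0.37 in HEPES, beside -0.035 and -0.084 over all genes tested. The groups did not overlap for 31 of 36 genes in MOPS and 29 of 36 in HEPES, against 71.8% and 78.4% of all genes. At least 2-fold changes were called in 4 genes in MOPS and 11 in HEPES, against 22.5% and 33.6% of all genes.

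These directions depend on the scaling more than those between the media. Scaling by total counts alone moved the median of all genes by -0.51 in MOPS and -0.58 in HEPES and gave 2084 genes higher and 9506 lower in MOPS, where TMM gave 4945 and 5062, and 2502 higher and 9666 lower in HEPES, where TMM gave 5168 and 5982. Under it 3 members were higher in MOPS (Acsl1, Acsl4 and Acsl5) and 5 in HEPES (the same 3 with Slc25a20 and Eci2). Small rises named below are therefore relative to the bulk of genes.

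Of the 36 genes, Acot2 had the largest fall with LPS in each medium and Acsl5 and Acsl1 the largest rises, in MOPS and in HEPES respectively. Acot2 stood at 15.3, 14.7 and 14.6 CPM in untreated MOPS and 4.01, 3.97 and 3.42 CPM with LPS (-1.96 ± 0.11, adjusted p = 3.60e-16, edgeR). In HEPES it went from 8.81, 9.5 and 9.29 CPM to 1.58, 1.97 and 1.67 CPM (-2.40 ± 0.14). Neither pair of groups overlapped. Acot1, at 0.633, 1.13 and 0.611 CPM in MOPS and 0.103, 0.473 and 0.551 CPM with LPS, was called lower (-1.09 ± 0.48), as it was in HEPES, from 0.27, 0.594 and 0.369 CPM to 0, 0.16 and 0.167 CPM (-1.86 ± 0.70). Both calls were lost on leaving out single libraries, in MOPS without MOPS replicate 2, HEPES replicate 6 or MOPS with LPS replicate 7 or 8 and with DESeq2 (adjusted p up to 0.262), and in HEPES without HEPES replicate 5 or HEPES with LPS replicate 10 (adjusted p up to 0.112). Acot8 fell by 0.25 and 0.58 on the log2 scale in MOPS and HEPES, and the former was lost with DESeq2 and without MOPS replicate 2 or 3 or MOPS with LPS replicate 7 or 9 (adjusted p up to 0.0891).

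Acsl5 rose in MOPS from 68, 66.7 and 73.1 CPM to 181, 166 and 168 CPM (1.31 ± 0.045) and in HEPES from 85.5, 88.3 and 87.8 CPM to 262, 246 and 246 CPM (1.53 ± 0.044). Acsl4 rose from 188, 198 and 202 CPM to 349.8, 358 and 355 CPM in MOPS (0.86 ± 0.038) and by 1.16 ± 0.038 in HEPES. Acsl1 rose in HEPES from 45.3, 50.1 and 44.5 CPM to 222, 194 and 186 CPM (2.10 ± 0.092) and in MOPS by less (0.82 ± 0.091). These 3 synthetases were higher with LPS in both media under total-count scaling too. Acsl3 went the other way in HEPES, where it fell by 0.80 on the log2 scale, and was not called in MOPS (0.30 ± 0.15 under TMM and -0.21 under total-count scaling). Acsl5 overlaps Zdhhc6 on the opposite strand on 8.31% of its exon bases.

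Among peroxisomal genes, 7 of 9 were lower with LPS in each medium, and Acaa1a was the only one called higher, in MOPS. Of all genes tested, 34.9% were lower in MOPS and 41.2% in HEPES. In either direction 88.9% of the 9 were called in MOPS and 77.8% in HEPES, beside 69% and 76.9% of all genes, so the HEPES share was near that of all genes. Crot was at 31, 33.5 and 30.6 CPM in MOPS and 14.8, 14.9 and 16 CPM with LPS (-1.06 ± 0.068), and at 34.1, 32 and 33.7 CPM in HEPES and 11.5, 10.4 and 10.7 CPM with LPS (-1.61 ± 0.072). Acox3 (ENSMUSG00000029098, chromosome 5 from 35583040 to 35615352) was at 144, 152 and 148 CPM and 85.1, 94.6 and 88.6 CPM in MOPS (-0.73 ± 0.044) and at 132, 123 and 126 CPM and 49.6, 48.8 and 49.4 CPM in HEPES (-1.36 ± 0.047). In both genes the lowest untreated library stood above the highest LPS library of the same medium. Ehhadh, with 5 to 73 counts per library, was at 2.14, 1.8 and 2.4 CPM in MOPS and 1.8, 0.946 and 0.717 CPM with LPS, which overlapped (-0.86 ± 0.29). Without MOPS with LPS replicate 8 or 9 that call was lost (adjusted p up to 0.0767). In HEPES Ehhadh was at 2.03, 2.55 and 1.51 CPM and 0.762, 0.479 and 0.278 CPM with LPS, with no overlap (-1.99 ± 0.34).

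Decr2 fell by 0.50 on the log2 scale in MOPS and by 1.43 in HEPES, where it went from 15.6, 16.7 and 15.4 CPM to 5.5, 5.91 and 6.23 CPM. Abcd3 was called in HEPES (-0.57 ± 0.048) and not in MOPS (-0.065 ± 0.045). Hsd17b4 fell by 0.35 on the log2 scale in HEPES and by 0.10 in MOPS, where its groups overlapped and the call was lost with DESeq2 and without MOPS replicate 1 or 2 or MOPS with LPS replicate 7 or 8 (adjusted p up to 0.172). Pex11a fell in MOPS (-0.34 ± 0.093) and was not called in HEPES (-0.027 ± 0.11). Acaa1a was higher with LPS in MOPS (0.37 ± 0.041) under TMM and lower under total-count scaling (-0.14), and Myd88, which overlaps it, rose by 1.68 ± 0.05. In HEPES Acaa1a was not called under TMM (0.036 ± 0.043), while Myd88 rose by 2.12 ± 0.051. The part of Myd88 reads in the counts of Acaa1a was not tested. The median of the 9 peroxisomal genes was -0.34 in MOPS and -0.58 in HEPES.

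Of the 19 mitochondrial genes, 14 were lower and 4 higher with LPS in MOPS, and 12 were lower and 4 higher in HEPES, with medians of -0.22 and -0.35. Of all genes tested, 34.9% were lower in MOPS and 41.2% in HEPES. In either direction 94.7% of the 19 were called in MOPS and 84.2% in HEPES, beside 69% and 76.9% of all genes. In both media 11 of the 19 were lower, a joint count that was not taken over all genes tested. These included Echs1 (-0.67 in MOPS and -1.15 in HEPES on the log2 scale), Acaa2 (-0.53 and -0.89), Hadh (-0.44 and -0.98), Acadm (-0.52 and -0.81), Acads (-0.49 and -0.53) and Cpt2 (-0.66 and -0.38). Paox, which overlaps Echs1, was at -1.60 and -3.18. Acad9 (-0.46 and -0.35) lost its HEPES call without HEPES with LPS replicate 12 (adjusted p up to 0.0734). Eci1 (-0.22 and -0.38) lost its MOPS call without MOPS replicate 3 or MOPS with LPS replicate 8 (adjusted p up to 0.122). Etfdh (-0.22 and -0.20) lost its HEPES call with DESeq2 and without HEPES with LPS replicate 10 or 12 (adjusted p up to 0.172).

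The log2 change of Acadl with LPS was -0.11 in MOPS and -0.14 in HEPES. Its MOPS call was lost without MOPS replicate 1 or 3 or MOPS with LPS replicate 7 (adjusted p up to 0.12). The HEPES groups overlapped, and that call was lost under 9 alternatives, among them DESeq2, RLE size factors, a fit to those 2 groups and leaving out HEPES replicate 4, MOPS with LPS replicate 7 or 8 or any HEPES library with LPS (adjusted p up to 0.326). Cpt1a was lower with LPS in MOPS (-0.13 ± 0.043) and higher in HEPES (0.21 ± 0.045), and the latter was lower under total-count scaling (-0.37). Hadha did the same (-0.14 ± 0.043 and 0.16 ± 0.044, the latter -0.43 under total-count scaling). Without MOPS with LPS replicate 7 the fall of Hadha in MOPS was not called (adjusted p = 0.0584, edgeR), and the rise in HEPES was not called with no filter on low counts (adjusted p = 0.0547, edgeR). Hadhb fell in MOPS (-0.15 ± 0.046) and was not called in HEPES (-0.061 ± 0.049).

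Slc25a20 was higher with LPS in HEPES, at 14.3, 11.6 and 12.4 CPM untreated and 22.9, 22.6 and 20.5 CPM with LPS (0.78 ± 0.075), while in MOPS it was higher under TMM (0.24 ± 0.063) and lower under total-count scaling (-0.28). Eci2 was higher in HEPES (0.78 ± 0.055), and in MOPS it was higher under TMM (0.15 ± 0.05) and lower under total-count scaling (-0.37). The MOPS call of Eci2 was lost without MOPS with LPS replicate 9 and with no filter on low counts (adjusted p up to 0.112). Etfa was higher in MOPS (0.14 ± 0.051) and HEPES (0.25 ± 0.053) under TMM and lower under total-count scaling (-0.37 and -0.33), and its MOPS call was lost with no filter on low counts and without MOPS replicate 3 or MOPS with LPS replicate 7 (adjusted p up to 0.115). Acadvl (0.22 ± 0.058) and Etfb (0.45 ± 0.12) were higher in MOPS under TMM and at -0.30 and -0.06 under total-count scaling, and neither was called in HEPES (0.14 ± 0.07 and 0.087 ± 0.13). Dvl2, on the opposite strand of Acadvl, fell by 1.62 and 1.86 on the log2 scale in MOPS and HEPES.

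Crat was lower with LPS in both media (-0.85 ± 0.051 in MOPS and -1.23 ± 0.055 in HEPES). Decr1 was lower in HEPES (-0.84 ± 0.082) and not called in MOPS (-0.17 ± 0.083). Acad11 was lower in HEPES (-0.37 ± 0.12), where its groups overlapped and the call was lost without HEPES with LPS replicate 10 or 11 (adjusted p up to 0.121), and was not called in MOPS (-0.12 ± 0.12).

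**Figure D4:**
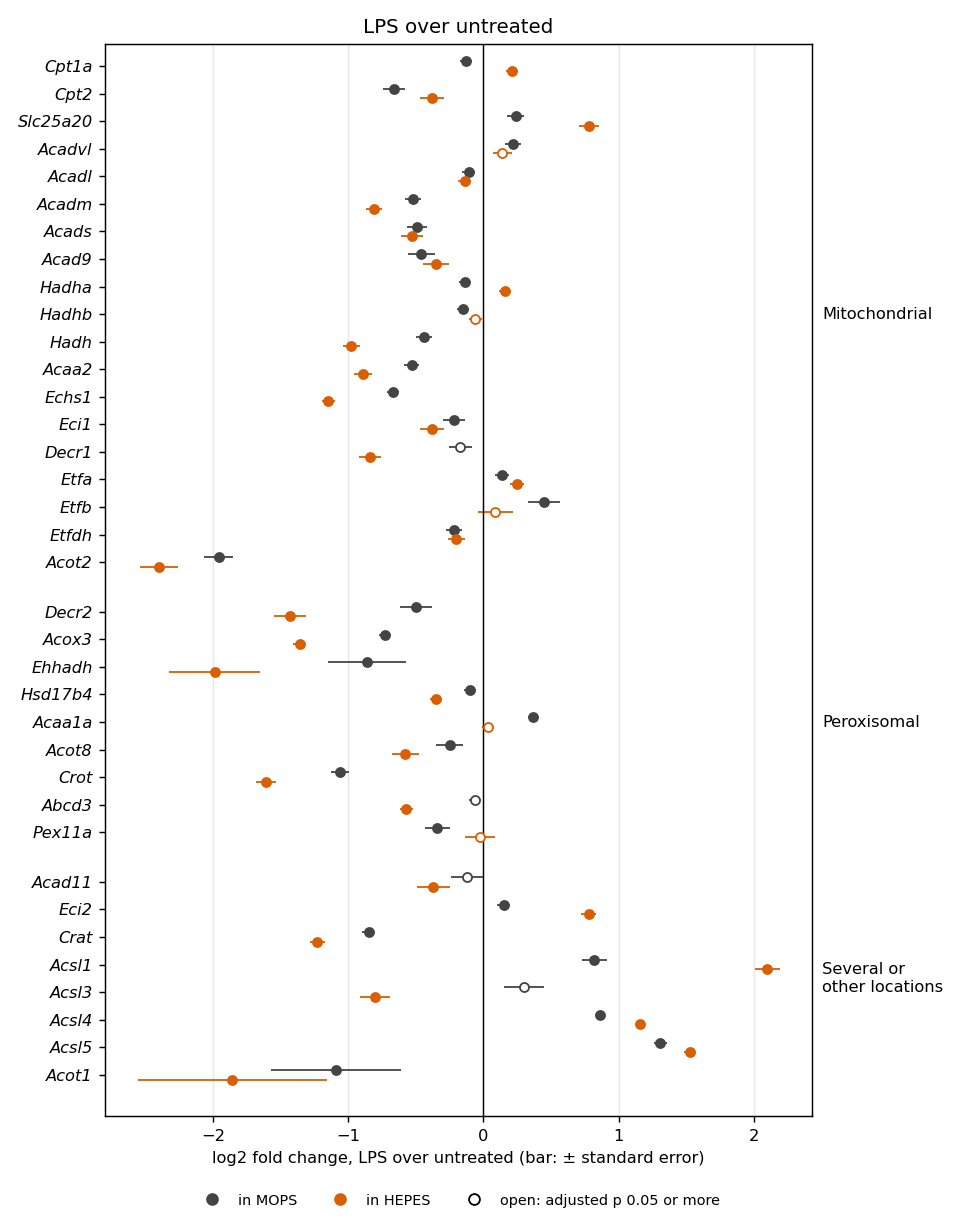
Log2 fold change of LPS over untreated under TMM scaling (horizontal axis) for each of the 36 genes, grouped by compartment, in MOPS (dark) and in HEPES (orange); bars are ± 1 standard error and open points have an adjusted p of 0.05 or more. Acot2 and Crot lie far to the left and Acsl4 and Acsl5 to the right in both media, and under total-count scaling the points of Acadvl, Etfa, Etfb and Acaa1a in both media, of Cpt1a and Hadha in HEPES and of Slc25a20, Eci2 and Acsl3 in MOPS change side.

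The difference between the LPS changes, the change in MOPS minus that in HEPES, was tested directly for each gene and is the same quantity as the difference between the medium effects. It was called in 20 of the 36 genes, 13 positive and 7 negative, where 21.9% of all genes tested were positive, 17.6% negative and 39.4% called in either direction (adjusted p under 0.05, edgeR). The median over the set was 0.25, beside 0.06 over all genes tested, and 2 were at least 2-fold, 1 in each direction, against 5.6% of all genes. Over all genes, total-count scaling gave 3891 positive and 1972 negative, where TMM gave 3173 and 2546. For a positive difference, LPS lowered the gene more, or raised it less, in HEPES than in MOPS. The peroxisomal genes had 6 of 9 positive and 0 negative, with a median of 0.51: Decr2 (0.93 ± 0.17), Acox3 (0.64 ± 0.064), Crot (0.55 ± 0.10), Abcd3 (0.51 ± 0.066), Acaa1a (0.33 ± 0.059) and Hsd17b4 (0.25 ± 0.063). Ehhadh, a gene of few counts, was at 1.13 ± 0.47 and did not pass (adjusted p = 0.0551, edgeR). Pex11a (-0.32 ± 0.15) was the only peroxisomal gene with a negative value, and was not called.

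The mitochondrial genes had 5 of 19 positive, 3 negative and a median of 0.049, whose sign turned without MOPS with LPS replicate 8 (-0.024) or HEPES with LPS replicate 12 (-0.044) and ran up to 0.10 without HEPES with LPS replicate 11. The number negative was 5 without MOPS with LPS replicate 7 or HEPES with LPS replicate 10. In either direction 42.1% of the 19 were called, near the 39.4% of all genes tested. Decr1 was the largest (0.67 ± 0.12). It stood at 30.1, 29.7 and 24 CPM in HEPES and 16.3, 15.2 and 15.4 CPM with LPS, and at 19.9, 21.1 and 19.4 CPM in MOPS and 19.4, 17.2 and 17.1 CPM with LPS, so the HEPES groups parted and the MOPS groups overlapped at their edge. Hadh (0.54), Echs1 (0.48), Acaa2 (0.36) and Acadm (0.29) were positive on the log2 scale, and the call of Acadm was lost without HEPES with LPS replicate 10 (adjusted p = 0.0699, edgeR). Paox, which overlaps Echs1, was at 1.58 ± 0.21, and the part of its reads was not tested. The negative ones were Slc25a20 (-0.55), Cpt1a (-0.35) and Hadha (-0.30). Cpt2, of the carnitine shuttle, and Hadhb, the partner of Hadha, were not called (-0.28 ± 0.12 and -0.084 ± 0.067, adjusted p of 0.0681 and 0.343, edgeR). Acadl (0.029 ± 0.066), Acadvl (0.077 ± 0.091), Acads (0.049 ± 0.11) and Etfdh (-0.022 ± 0.086) were not called.

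Elsewhere, Acsl1 had the largest negative difference (-1.28 ± 0.13, adjusted p = 1.03e-05, edgeR) and Acsl3 the largest positive one (1.10 ± 0.19), where Utp14b was at 1.04 ± 0.20. Acsl1 was at 126, 99 and 108 CPM in MOPS with LPS and 222, 194 and 186 CPM in HEPES with LPS, from 62.2, 64 and 61.5 CPM and 45.3, 50.1 and 44.5 CPM untreated. Eci2 (-0.64), Acsl4 (-0.31) and Acsl5 (-0.21) were negative and Crat (0.38) positive on the log2 scale, and Acsl5 was not called under total-count scaling (adjusted p = 0.0631, edgeR). Across the set, the LPS change was lower in HEPES than in MOPS for 23 of 36 genes, called or not. These were 11 of 19 mitochondrial, 8 of 9 peroxisomal and 4 of 8 other genes. Over all genes tested, the same held for 7976 of 14506.

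The rest of the pathway was read from 6 lists of other genes. Without LPS, the share called in either direction was 83.3% of PPAR targets, 57.9% of regulators, 75% of uptake genes, 66.7% of other mitochondrial enzymes, 43.8% of other peroxisomal enzymes and 46.7% of peroxins, beside 49.7% of all genes tested. In the other comparisons the shares follow in this order: media with LPS, LPS in MOPS, LPS in HEPES and interaction. All genes tested had 53.8%, 69%, 76.9% and 39.4%. PPAR targets had 100%, 66.7%, 75% and 41.7%, and regulators 73.7%, 84.2%, 89.5% and 63.2%. Uptake genes had 75%, 75%, 75% and 50%, and other mitochondrial enzymes 61.1%, 61.1%, 100% and 83.3%. Other peroxisomal enzymes had 62.5%, 81.2%, 93.8% and 50%, and peroxins 60%, 73.3%, 53.3% and 20%. Targets of PPAR receptors outside the set had 8 of 12 tested genes higher and 2 lower in MOPS without LPS, with a median of 1.70. Ucp2, an inner-membrane carrier, was at 1.87 ± 0.037 and Plin2, the lipid droplet coat protein, at 2.06 ± 0.043, beside 6.52 for Angptl4 and 8.04 for Pdk4 on the log2 scale. Angptl4 and Pdk4 were low in HEPES, at 1.66 ± 0.258 and 0.199 ± 0.0131 CPM (SD, n = 3). The size of their changes, of Pdk4 above all, therefore rests on few reads there. The 2 lower targets were Fabp3 (-2.11 on the log2 scale) and Fabp4. For Fabp4 the HEPES mean was 800 CPM and the MOPS mean 476 CPM. The lists are not fully separate, since Fabp3 is counted again among the uptake genes below. With LPS 10 of the 12 targets were higher and 2 lower, with Ucp2 at 1.97 ± 0.037. LPS itself raised 3 and lowered 5 of the 12 in MOPS, and raised 4 and lowered 5 in HEPES, and Txnip fell in both (-2.31 ± 0.046 and -2.37 ± 0.048). The interaction was called for 5 of the 12, led by Hilpda (-1.33 ± 0.1).

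Regulators of fatty acid oxidation, receptors and their cofactors among them, had 7 of 19 higher and 4 lower without LPS, with a median of 0.068. Pparg was lower (-1.65 ± 0.097), while the retinoid receptor Rxrb (0.57 ± 0.047) and the cofactors Nrip1 (0.49 ± 0.048) and Ncor1 (0.37 ± 0.04) were higher. With LPS 9 were higher and 5 lower in MOPS, with Rxra at 0.91 ± 0.046. LPS lowered 10 and raised 6 in MOPS, and lowered 11 and raised 6 in HEPES; Rxra fell by 0.96 and 2.15 on the log2 scale and Lpin1, a coactivator and phosphatase, by 2.40 and 3.91. For Rxra the difference between these LPS changes was 1.19 ± 0.061.

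Genes of fatty acid uptake, binding and release from stores went both ways, 6 of 16 higher and 6 lower without LPS (median -0.024) and 7 and 5 with LPS. Pnpla2, the triglyceride lipase (1.84 ± 0.046), and Slc27a1, a fatty acid transporter (1.82 ± 0.047), were higher, and the binding proteins Fabp3 (-2.11 ± 0.073) and Fabp5 (-0.96 ± 0.038) lower. Acbd3, an acyl-CoA binding domain protein, rose with LPS in both media, by 1.47 ± 0.042 in HEPES.

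Other mitochondrial acyl-CoA enzymes, mostly of branched-chain and ketone metabolism, did not go the way of the set: 3 of 18 stood higher and 9 lower in MOPS than in HEPES without LPS, with a median of -0.16. The ketone-using enzyme Oxct1 (-1.27 ± 0.041), the propionyl-CoA carboxylase subunit Pccb (-0.74 ± 0.056) and the thiolase Acat1 (-0.50 ± 0.057) were lower, and the thioesterase Acot7 was higher (1.10 ± 0.094). With LPS 8 were higher and 3 lower, Oxct1 (-0.85 ± 0.043) and Acot9 (-0.57 ± 0.049) among the lower ones. LPS lowered 9 of the 18 and raised 2 in MOPS, and lowered 16 and raised 2 in HEPES; Acad12 fell by 1.70 and 2.11 on the log2 scale and Acot9 rose in both (1.07 and 1.41). The interaction was positive for 13 of the 18 and negative for 2.

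Other peroxisomal lipid enzymes and transporters had 4 of 16 higher and 3 lower without LPS, with a median of 0.0095. Catalase, Cat, which removes hydrogen peroxide, was higher (1.56 ± 0.044), as was Abcd2, an importer of very long chains (1.38 ± 0.054), and Far1, of ether lipid synthesis, was lower (-0.39 ± 0.039). With LPS 7 were higher and 3 lower, with Cat at 1.91 ± 0.046 and Abcd2 at 2.72 ± 0.10. LPS lowered 11 of the 16 in MOPS and 13 in HEPES, Abcd2 with them (-2.65 ± 0.062 in MOPS), and raised 2 in each. The interaction was positive for 6 and negative for 2. Of the 15 peroxins, which build peroxisomes, 4 were higher and 3 lower without LPS (median 0.07), with Pex6 at 0.39 ± 0.056 and Pex7 at -0.47 ± 0.067, and 6 and 3 with LPS. Pex11a, in the set, changed more between the media without LPS (1.28 on the log2 scale) than any of the 7 peroxins called there. LPS lowered 7 and raised 4 peroxins in MOPS and lowered 6 and raised 2 in HEPES, with Pex26 at -2.08 ± 0.15 and -1.83 ± 0.15.

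The authors' deposited table called 28 of the 36 genes between the media without LPS, 29 with LPS, and 27 for LPS in each medium. In the authors' deposited table the direction was the same wherever a gene was also called here, and 0 were opposite. Both come from the same libraries, so the shared direction is not independent evidence. With LPS the authors called 18 genes lower in MOPS and 19 in HEPES, where 23 were lower here in each medium.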

How the data were processed

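RNA from 12 libraries of peritoneal macrophages was measured, 3 in each of 4 groups. Per the file headers, the table deposited by the authors holds raw counts per gene and library, FPKM values, and log2 fold changes and adjusted p-values of 4 comparisons, whose sign was turned for LPS. The submitters' processing notes name CASAVA 1.8, HISAT2 2.0.5, featureCounts 1.5.0-p3 and mm10; what each did, the annotation release, the strand setting and the test behind the authors' comparisons are information not given in the sources used here. FPKM values, as deposited, were checked against CPM per kilobase from the counts and differed by a constant factor per library, 0.9736 to 1.001.

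Counts were fitted in R 4.3.3 with edgeR 4.0.16: filterByExpr left 14506 of 54532 genes, libraries were scaled by TMM factors, and a model with 1 mean per group and robust quasi-likelihood dispersion had 8 residual degrees of freedom. P-values were adjusted by Benjamini-Hochberg over all genes tested; no minimum fold was set. MOPS was set against HEPES without and with LPS, and LPS against untreated in both media, and the difference between the LPS changes was tested. Sums and levels between genes are CPM per kilobase of the gene length in the table. The methods were tested on simulated data. The chi-square per degree of freedom between libraries of a group was 2.663 to 6.544 (genes of 20 or more counts), so none agreed within counting noise. All 36 genes were found in GENCODE M21, 32 with the same coordinates, which was used for overlaps; promoters came from a RefSeq table.

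The members and lists were chosen with earlier results of these data known. All 36 are named, with values per library for up to 8 called genes with the largest changes in each comparison of media, up to 6 in each LPS comparison and in the interaction, and those lower in MOPS without LPS; from other lists up to 4 called genes by smallest p at rest and up to 2 elsewhere were named. Alternatives were RLE size factors, total counts only, no filter, DESeq2 1.42.0, a fit to the 2 groups compared, each library left out, other compartments for 4 genes and leaving out near copies. A planned look at protein ends was not done, and some genes of the lists are not reported here.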

Additional observations from a re-analysis of the deposited data

Results flagged for a closer look

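In 20 of the 36 genes the LPS change differed between the media by a test of the difference itself (edgeR's quasi-likelihood test, adjusted over all genes tested). The values are log2, the change in MOPS minus the change in HEPES. Among peroxisomal genes they were 0.93 for Decr2, 0.64 for Acox3, 0.55 for Crot, 0.51 for Abcd3, 0.33 for Acaa1a and 0.25 for Hsd17b4. Among mitochondrial genes they were 0.67 for Decr1, 0.54 for Hadh, 0.48 for Echs1, 0.36 for Acaa2 and 0.29 for Acadm, and on the negative side -0.55 for Slc25a20, -0.35 for Cpt1a and -0.30 for Hadha. The other genes were Acsl3 at 1.10, Crat at 0.38, Acsl5 at -0.21, Acsl4 at -0.31, Eci2 at -0.64 and Acsl1 at -1.28. The calls of Acadm and Acsl5 were each lost under 1 alternative, Acadm without HEPES with LPS replicate 10 (adjusted p = 0.0699, edgeR) and Acsl5 under total-count scaling (adjusted p = 0.0631, edgeR).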

How the results depend on the processing

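No paired analysis was made, because the labels do not say whether libraries of different groups belong together. Counting a result as 1 gene in 1 comparison, 172 results kept direction and call with DESeq2 and 7 lost the call, 176 kept both with RLE size factors, and 172 with no filter on low counts. Scaling by total counts reversed 12, all LPS changes: in MOPS Slc25a20 was at -0.28, Acadvl -0.30, Etfa -0.37, Etfb -0.06, Acaa1a -0.14 and Eci2 -0.37, and in HEPES Cpt1a was at -0.37, Acadvl -0.44, Hadha -0.43, Etfa -0.33, Etfb -0.50 and Acaa1a -0.55. It left 3 members higher with LPS in MOPS and 5 in HEPES. It also moved the mitochondrial and peroxisomal medians to -0.73 and -0.86 in MOPS and to -0.93 and -1.16 in HEPES, and the mitochondrial median to 0.77 between the media with LPS and 0.12 in the interaction. With no filter the mitochondrial median for LPS in HEPES was -0.41. Without Acot1, Acot2 and Acaa1a it was -0.27, the peroxisomal one -0.97 and the mitochondrial one between the media with LPS 0.63. With Eci2 and Acad11 counted as peroxisomal, the peroxisomal median of the interaction was 0.33.

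With each library left out in turn, members higher and lower in MOPS were 22 to 23 and 5 to 7 without LPS, and 24 to 26 and 5 to 5 with it. For LPS they were 8 to 10 and 19 to 23 in MOPS and 8 to 9 and 19 to 23 in HEPES, and for the interaction 13 to 15 and 7 to 10. Mitochondrial medians ranged over 0.54 to 0.58, 0.59 to 0.67, -0.24 to -0.17, -0.37 to -0.21 and -0.044 to 0.10 in that order, and peroxisomal ones over 0.16 to 0.21, 0.64 to 0.70, -0.46 to -0.29, -0.60 to -0.53 and 0.44 to 0.53. Depth limits Acot1, with 0 to 34 counts per library, and Ehhadh, with 5 to 73.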

Other observations

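Levels per length ranged widely within the set. In HEPES without LPS, Acadl, Acsl4, Etfa and Cpt1a stood highest, at 41.6, 35.1, 31.9 and 26 CPM per kilobase, and Acad11, Ehhadh and Acot1 lowest, at 0.884, 0.681 and 0.105, where the median of all genes tested was 3.72.

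Ratios between partners, per kilobase, are given as mean ± SD over 3 libraries. Hadha stood at 1.81 ± 0.0375 times Hadhb in MOPS, 2.04 ± 0.137 in HEPES, and, with LPS, 1.82 ± 0.0926 in MOPS and 2.37 ± 0.11 in HEPES. For Cpt1a over Cpt2 the ratio with LPS was 10.7 ± 0.454 in MOPS and 6.16 ± 0.805 in HEPES, and for Acadl over Acadm it was 12.7 ± 0.749 and 5.08 ± 0.509. Etfa over Etfb was 8.89 ± 0.0508 in MOPS, 8.38 ± 0.82 in HEPES, and, with LPS, 7.2 ± 0.841 in MOPS and 9.33 ± 0.588 in HEPES, and the overlap of Etfb with Gm45233 bears on these values.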
